A study of Mus musculus with 19 samples.

Results

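The lysyl oxidase family comprises 5 genes in the mouse, Lox, Loxl1, Loxl2, Loxl3 and Loxl4, and its members were taken by gene symbol. Of the 5 genes, 4 had at least 1 probe set carrying their symbol alone, out of 18194 such genes on the array, and 3 of them (Lox, Loxl1 and Loxl3) had signal enough to be tested, out of 10733 genes tested. Both probe sets that list Loxl2 also list another gene, so no value is given for Loxl2. Left ventricles were taken from 19 male C57BL/6 mice operated at 7 weeks of age and killed 4 weeks later, with 1 array per mouse. The groups were 7 mice with banding of the aorta and heart failure, 7 mice with banding and no heart failure, and 5 mice with a sham operation. Banding narrows the aorta and so raises the pressure against which the ventricle ejects. The labels name no genetic change in any group and do not state by which criterion heart failure was called.

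Lysyl oxidases are secreted enzymes that use copper and an internal quinone cofactor to oxidise lysine side chains of collagens and elastin to aldehydes, which then condense into covalent crosslinks. LOX and LOXL1 are made as precursors whose propeptide is cut off outside the cell by proteinases of the BMP1 type, whereas LOXL2, LOXL3 and LOXL4 carry scavenger receptor domains. In the heart the fibroblasts make most of the fibrillar collagen on which these enzymes act, and crosslinking makes that collagen stiffer and harder to degrade.

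Values are log2 signals processed with GCRMA by the authors, so a difference of 1 is a 2-fold change. The lowest value on the arrays is 2.19, and a probe set was tested where its log2 signal was above 4 in at least 5 arrays. Several features of the series touch the results. A control for 18S ribosomal RNA was high on 6 arrays (9.03 to 11.8, of banded mice without heart failure 5 to 7 and sham mice 1 to 3) and low on the other 13 (5.14 to 7.62). The 3' minus 5' difference of the actin control was 0.661 to 0.905 in banded mice with heart failure and 0.672 to 0.898 without it, against 0.943 to 1.02 in sham mice. Heart failure mouse 5 stood apart: it was the highest or the lowest of its 7-mouse group in 50.8% of the tested genes, whereas each other mouse of the group was so in 18.0% to 33.3%. The labelled tissue fitted its markers, as 6 of 6 cardiomyocyte markers were tested and averaged 15.48 to 15.56 in the mice with heart failure, 15.52 to 15.61 in banded mice without it and 15.59 to 15.70 in sham mice. Atrial markers were not absent, although the labels describe removal of the atria. Their mean ranged from 6.63 to 14.14 in mice with heart failure and from 10.21 to 13.60 without it, against 8.18 to 12.38 in sham mice. That mean includes Nppa, which was 15.39 to 15.55 in the heart failure mice other than mouse 5. In those mice Myl7 ran from 2.30 to 13.89 (median 4.60) and Sln from 2.19 to 12.92 (median 3.59), so from near the floor to a high signal.

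Lox, the founding member of the family, was highest in the mice with heart failure. Its log2 signal in those 7 mice was 10.09, 10.34, 9.25, 9.88, 10.97, 9.89 and 9.99. In the 7 banded mice without heart failure it was 9.02, 6.95, 7.95, 8.55, 7.51, 7.62 and 8.48, and in the 5 sham mice 6.68, 6.28, 8.09, 6.02 and 6.25. Every mouse with heart failure thus lay above every mouse of both other groups, while banded mice without heart failure overlapped with sham mice through sham mouse 3. The group means were 10.06 ± 0.52 with heart failure and 8.01 ± 0.71 without it (SD, n = 7 each), and 6.66 ± 0.84 in sham mice (n = 5).

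Loxl1, a member known for its part in the renewal of elastic fibres in mice, was highest in the banded mice with heart failure and lowest in sham mice. Its signal was 12.18, 12.54, 11.95, 12.39, 10.98, 12.10 and 12.19 in the mice with heart failure. The banded mice without heart failure had 11.93, 10.98, 11.58, 11.70, 11.36, 11.55 and 11.98, and the sham mice 10.69, 10.14, 10.99, 10.46 and 10.79. Both banded groups overlapped with sham by a single mouse of theirs (heart failure mouse 5 and banded mouse 2 without heart failure), and the banded groups overlapped with each other. Means were 12.05 ± 0.51 and 11.58 ± 0.35 in banded mice with and without heart failure (SD, n = 7 each), against 10.62 ± 0.33 in sham mice (n = 5).

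Loxl3, a member needed for the development of the palate and spine in mice, had 8.53, 9.03, 8.36, 8.91, 8.67, 8.54 and 8.64 in the mice with heart failure. In banded mice without heart failure the values were 8.13, 6.75, 7.78, 7.78, 7.49, 7.36 and 7.92, against 6.67, 6.77, 6.63, 6.27 and 6.32 in sham mice. No mouse with heart failure reached down to a mouse of another group, and banded mouse 2 without heart failure was the one of its group that lay within the sham range. The means were 8.67 ± 0.23, 7.60 ± 0.45 and 6.53 ± 0.22 in mice with heart failure, banded mice without it and sham mice (SD, n = 7, 7 and 5). In bulk ventricle, a change in the number of cells that make a transcript and a change in transcript per cell cannot be told apart, which holds for each gene here.

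**Figure D1:**
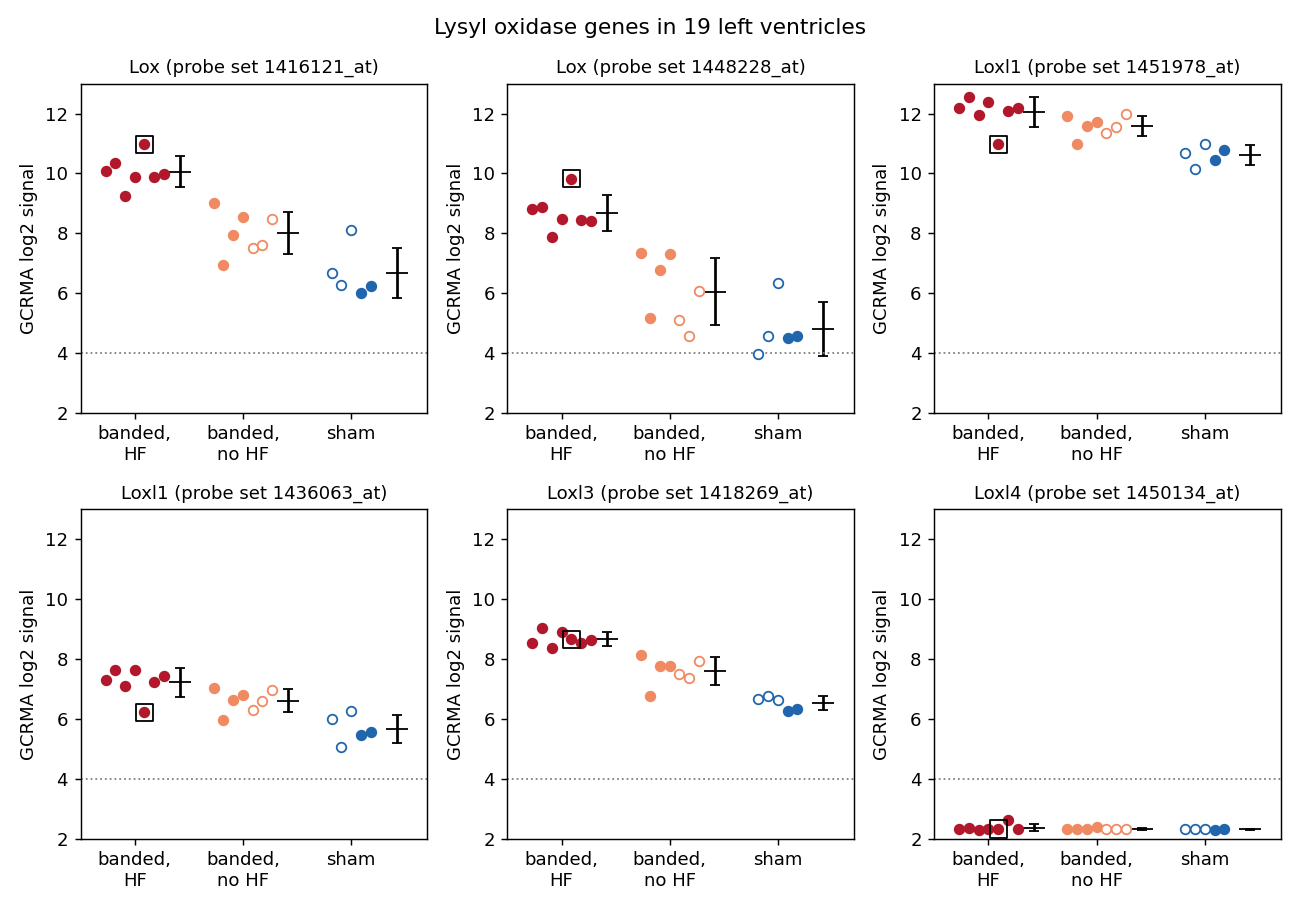
Log2 signal (vertical axis) of 6 probe sets of the family, with 1 point per mouse by group, bars at the mean ± SD beside each group, and a dotted line at the filter level of 4. Open points are arrays with high 18S signal and the square marks heart failure mouse 5, which is the highest of its group for Lox (10.97) and the lowest for Loxl1 (10.98), while every Loxl4 point lies near the floor.

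Loxl4 was not detected. Its probe sets reached no more than 2.63 in any mouse with heart failure, 2.40 in any banded mouse without it and 2.43 in any sham mouse, so it stayed near the floor, and no change can be read from it. In a fit without the filter its differences were 0.05, 0.03 and 0.02 for heart failure against sham, heart failure against no heart failure, and no heart failure against sham (limma, adjusted p = 0.517, 0.827 and 0.955).

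In the ventricles with heart failure all 3 tested members were higher than in sham (limma, Benjamini-Hochberg adjustment over 10733 genes), against 20.4% of all tested genes that were called higher there and 39.3% called in either direction. Lox differed by 3.40 ± 0.37 on the log2 scale (SE), a 10.5-fold rise with an adjusted p of 1.62e-06, and it stood at place 14 of 10733 in the order of rises. Loxl3 rose by 2.13 ± 0.18, which is 4.39-fold (adjusted p = 1.13e-07, place 60). Loxl1 rose by 1.43 ± 0.23, 2.7-fold (adjusted p = 7.45e-05, place 191). A rise of at least 2-fold was called for 3.74% of all genes tested. In 2 of the 3 members, Lox and Loxl3, every mouse with heart failure lay above every sham mouse, as did 8.5% of tested genes.

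Heart failure against banding without heart failure separated the members. Lox rose by 2.05 ± 0.34 (4.13-fold, adjusted p = 0.0027), place 2 of 10733 in the order of rises, and Loxl3 by 1.06 ± 0.17 (2.09-fold, adjusted p = 0.0017, place 60). Loxl1 differed by 0.46 ± 0.21 with a 95% interval of 0.033 to 0.894 and an adjusted p of 0.159. The calls thus covered 2 of 3 members, where 3.83% of all genes were called higher, 5.65% lower and 9.48% in either direction, and 0.484% were called at least 2-fold higher. Lox and Loxl3 were also the members in which every mouse with heart failure lay above every banded mouse without it, which held for 0.839% of all genes. With heart failure mouse 5 left out, Loxl1 rose by 0.64 (limma, adjusted p = 0.0173), Lox by 1.89 (0.00348) and Loxl3 by 1.06 (0.00282). As that mouse had the lowest Loxl1 of its group, leaving it out was bound to raise the Loxl1 difference.

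Banding without heart failure, set against sham, also gave 3 of 3 tested members higher, against 10.8% of tested genes called higher and 17.4% in either direction. Lox was higher by 1.35 ± 0.37 (2.55-fold, limma adjusted p = 0.0183), Loxl3 by 1.07 ± 0.18 (2.1-fold, 0.000668) and Loxl1 by 0.97 ± 0.23 (1.96-fold, 0.00656). Of the 7 banded mice without heart failure, 3 lay above every sham mouse in Lox, 6 in Loxl1 and 6 in Loxl3, so no member had all 7 above, which 4.63% of tested genes had. The Lox call was the least secure of the 3: it was lost without sham mouse 2 (1.25, adjusted p = 0.0541), with the actin difference as a covariate (0.94, 0.259), in the low 18S arrays alone (1.99, 0.0503) and in the high 18S arrays alone (0.85, 0.286). The Loxl1 call was lost in the low 18S arrays alone (0.92, adjusted p = 0.188), where 4 mice were set against 2 sham mice. As the actin difference of all banded mice was under that of all sham mice, RNA quality and banding cannot be told apart in that covariate. Both comparisons with sham share the same 5 sham mice.

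The second probe sets moved the same way, and 1 of them differed in a call. On its other detected probe set Lox was 8.68 ± 0.605 with heart failure, 6.05 ± 1.13 without it and 4.79 ± 0.903 in sham mice, and the change was 3.88 for heart failure against sham (adjusted p = 1.07e-05), 2.63 against banded mice without it (0.00427), and 1.26 for these against sham (0.0938, so not called). The third Lox probe set was at 2.193, the floor, on all 19 arrays. The other Loxl1 probe set gave 7.22 ± 0.484 and 6.61 ± 0.379 with and without heart failure and 5.67 ± 0.473 in sham, with changes of 1.55 (limma, adjusted p = 9.51e-05), 0.61 (0.106) and 0.94 (0.0154) in the same order of comparisons.

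**Figure D2:**
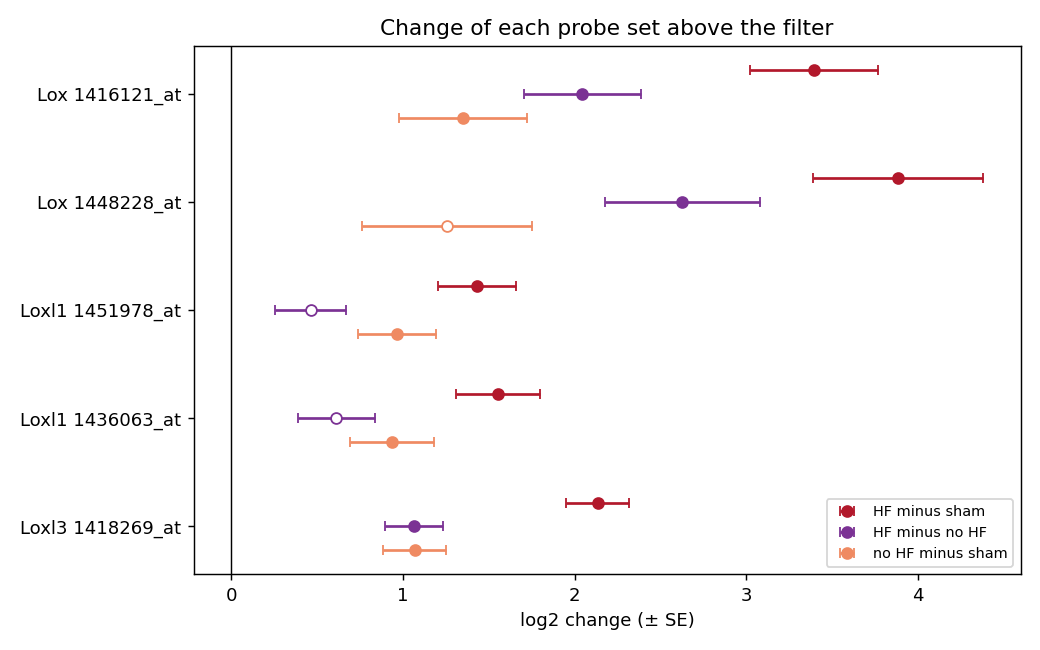
Log2 change (horizontal axis) of each detected probe set of the family in 3 comparisons, as points with SE bars; filled points have an adjusted p under 0.05 over all probe sets. Lox rose most against sham, by 3.40 and 3.88 on its 2 probe sets, and both Loxl1 probe sets are open for heart failure against no heart failure.

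The direction held for Lox and Loxl3 within each of 3 groups of animal numbers and within each 18S set. The labels name no batch; the animal numbers were divided for this comparison into 3 series, A, B and C. The high 18S arrays are the same 6 arrays as the sham mice and the banded mice without heart failure of series A, while both mice with heart failure of series A had low 18S signal. The series A differences that involve heart failure therefore cross the 18S sets, and the others of series A are those of the high 18S set. Heart failure minus no heart failure was 2.34, 2.12 and 1.497 for Lox in series A, B and C, 1.19, 1.37 and 0.66 for Loxl3, and 0.73, 0.89 and -0.06 for Loxl1. Heart failure mouse 5, with the lowest Loxl1, belongs to series C. For heart failure minus sham the corresponding differences were 3.20, 3.55 and 4.04 for Lox, 2.09, 2.36 and 2.29 for Loxl3, and 1.75, 1.71 and 0.96 for Loxl1. For no heart failure minus sham they were 0.85, 1.44 and 2.54 for Lox, 0.90, 0.997 and 1.63 for Loxl3, and 1.02, 0.82 and 1.02 for Loxl1. With the series as a block, or with the 18S set as a block, all calls of the 3 members were kept. No mouse with heart failure lay in the high 18S set, and in the low set alone heart failure against no heart failure gave Lox 1.94 (limma, adjusted p = 0.034) and Loxl3 1.06 (0.0401).

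The members changed by unequal amounts. As different probe sets cannot be ranked by level, the difference between 2 members was formed within each mouse, and this difference was compared between groups by exact two-sided permutation tests, adjusted over 9 tests. Lox gained on Loxl1 by 1.58 in mice with heart failure against those without it (exact p = 0.000583, which is the lowest value possible with 7 against 7 mice, adjusted p = 0.00262), and by 1.97 against sham (exact permutation, adjusted p = 0.00568). Lox gained on Loxl3 by 0.98 (adjusted p = 0.0035, exact permutation) and 1.26 (0.0265). Loxl1 minus Loxl3 fell by 0.60 (exact permutation test, adjusted p = 0.00262) and 0.70 (0.0265) in the same comparisons. When banded mice without heart failure were set against sham mice, no pair passed the threshold, with differences of 0.38 for Lox minus Loxl1, 0.28 for Lox minus Loxl3 and -0.10 for Loxl1 minus Loxl3 (adjusted p = 0.325, 0.457 and 0.604, exact permutation).

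Several of these calls depended on having 5 sham mice. Omission of sham mouse 1, 2, 4 or 5 left a gain of Lox on Loxl3 of 1.23, 1.11, 1.17 or 1.21 in heart failure against sham, close to 1.26, but the adjusted p was then 0.0545 to 0.0636 (exact permutation). Omission of sham mouse 1, 4 or 5 left Loxl1 minus Loxl3 at -0.72, -0.68 or -0.61, beside -0.70, with an adjusted p of 0.0636. Without sham mouse 3, whose Lox was highest of its group, Lox gained 0.65 on Loxl1 (exact permutation, adjusted p = 0.0468) and 0.61 on Loxl3 (0.0182) in banded mice without heart failure. With heart failure mouse 5 left out, all 6 pair differences with heart failure kept their calls, and the gain of Lox on Loxl1 was 1.25 against no heart failure and 1.63 against sham.

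Across mice of 1 group, the members tended to be high and low together in banded mice without heart failure. Within those 7 mice Pearson's r was 0.929 for Lox with Loxl1, 0.934 for Lox with Loxl3 and 0.938 for Loxl1 with Loxl3 (exact permutation p = 0.00258, 0.00278 and 0.00278; adjusted over 6 relations, 0.00556 each). Spearman's rho was 0.893, 0.901 and 0.919 (exact p = 0.0123, 0.00952 and 0.00635), and r without the 2 mice farthest from the median was 0.854 to 0.859. In the 7 mice with heart failure, r was -0.524, 0.454 and 0.374 for the same pairs (exact permutation p = 0.254, 0.305 and 0.421; rho 0, 0.464 and 0.607 with exact p = 1, 0.302 and 0.167). Leaving out mouse 5, a choice made after the values were seen, gave 0.794, 0.715 and 0.986 over 6 mice (exact p = 0.0583, 0.0972 and 0.00278). Without the 2 farthest mice, r in heart failure was 0.636, 0.501 and 0.973. These correlations cannot be compared between the groups by any test made here.

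**Figure D3:**
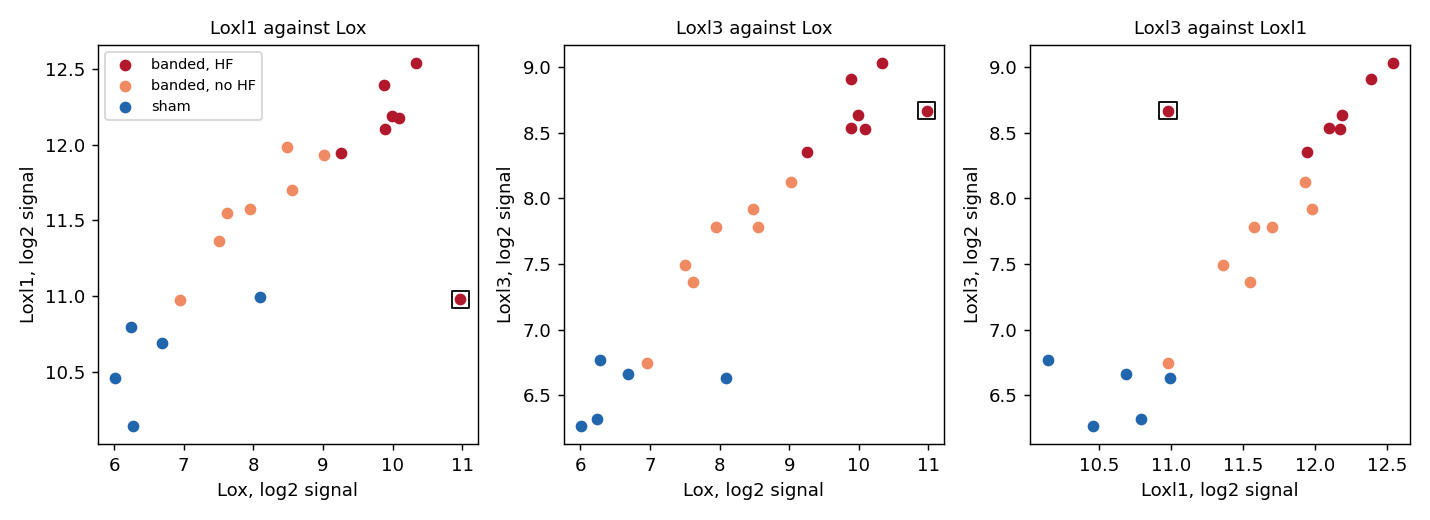
Log2 signal of 1 member against another in 3 panels, 1 point per mouse coloured by group, with heart failure mouse 5 in a square. That mouse has the highest Lox (10.97) and the lowest Loxl1 (10.98) of its group and lies off the line of the other points in the panel of Loxl1 against Lox.

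The labels also give a left ventricular and a lung index for each mouse, and in 19 of 19 mice both equal 1000 times the organ weight given in the labels, divided by the tibia length (tolerance 0.01); the unit of the weights is not settled. Relations of Lox, Loxl1 and Loxl3 to both indices were computed within each banded group, 12 in all, and none passed after adjustment (exact permutation tests; lowest adjusted p = 0.252). The lowest raw p belonged to Loxl3 and the lung index in heart failure, with r = -0.776 (exact p = 0.0385) and rho = -0.714 (exact p = 0.0881), and without the 2 mice farthest from the median r was -0.264. In banded mice without heart failure, r with the left ventricular index was 0.708, 0.654 and 0.663 for Lox, Loxl1 and Loxl3 (exact p = 0.0843, 0.108 and 0.0937), and 0.214, -0.169 and 0.141 without the 2 farthest mice. The left ventricular index was 8.09 to 9.75 with heart failure and 6.42 to 7.59 without it, against 4.82 to 5.47 in sham mice, so the groups formed separate clusters. The lung index was 17.92 to 24.62 in mice with heart failure, apart from the 8.52 to 10.83 of banded mice without it, which overlapped with the 8.20 to 9.38 of sham mice. No relation over all mice was computed for either index.

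**Figure D4:**
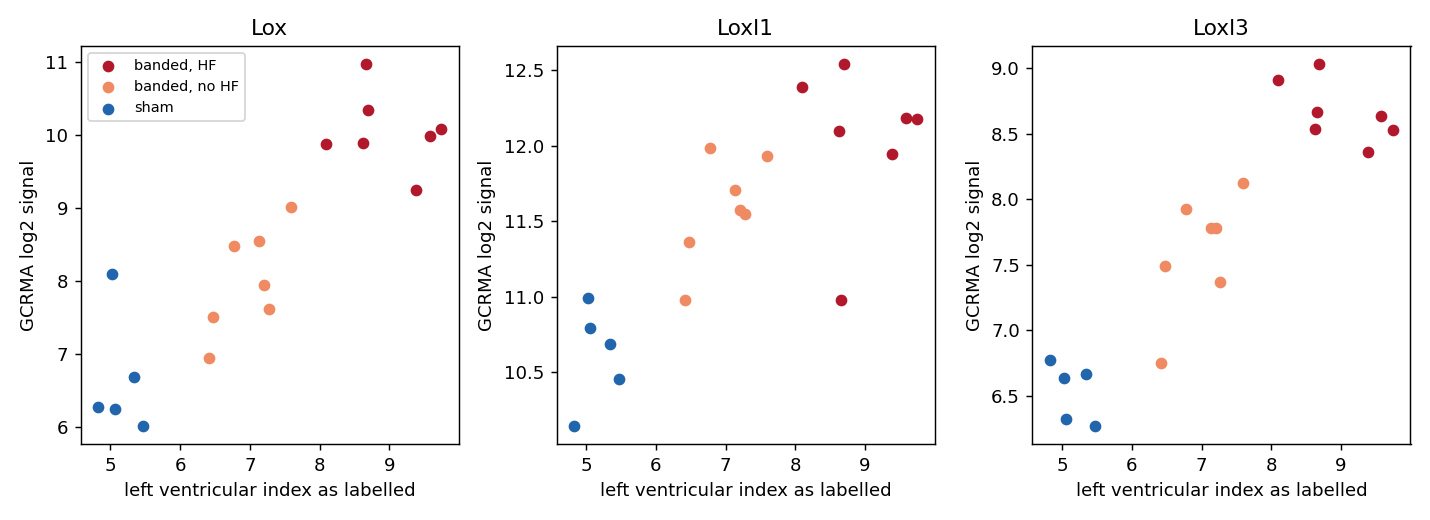
Log2 signal of Lox, Loxl1 and Loxl3 (vertical axes) against the labelled left ventricular index (horizontal axis), 1 point per mouse coloured by group. The 3 groups form separate clusters along the index, and within the 7 mice with heart failure the highest Lox (10.97) does not belong to the highest index.

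The genes most like each member over the 19 arrays were found by Pearson's r among the tested genes. For Lox they were Nupr1 (0.977), Serpinb6a (0.971) and Itgbl1 (0.953). Nupr1 encodes a small chromatin-associated stress protein, and it rose by 1.34 ± 0.252 in heart failure against no heart failure (limma, adjusted p = 0.00447). For Loxl1 they were Meox1 (0.974), Col6a1 (0.972) and Praf2 (0.967). Meox1 is a homeobox gene that marks activated fibroblasts and Col6a1 encodes a chain of collagen VI; against sham they rose by 2.20 and 1.22 in heart failure (limma, adjusted p = 6.83e-05 and 7.22e-06). For Loxl3 they were Col12a1 (0.982), a collagen that associates with fibrils, Thbs4 (0.977), a matricellular thrombospondin, and Serpinf1 (0.976), which encodes pigment epithelium-derived factor. These r values partly reflect the differences between groups; on deviations from the group means r was 0.815 to 0.945. Heart failure mouse 5 lay below every other mouse of its group in Loxl1, Meox1 (7.55), Col6a1 and Praf2, and above every other in Lox, Nupr1 and Serpinb6a. These genes were picked by r over arrays that include this mouse, so the choice itself favours a shared extreme. Of all 10733 tested genes, 3010 lay below and 2439 above every other mouse of the group in mouse 5. Over the 18 other arrays, a choice made after the values were seen, r of the 9 pairs was 0.958 to 0.983, and 0.823 to 0.926 on deviations. The 3 genes most like Lox were then Nupr1, Tmem45a (0.972) and Col6a1 (0.968), with Serpinb6a at place 5 and Itgbl1 at place 9. Those most like Loxl1 were Col6a1, Col5a2 (0.978) and Meox1, with Praf2 at place 16, and Srpx2 (0.981) stood before Col12a1 and Thbs4 for Loxl3, with Serpinf1 at place 4. They are the highest of 10733 genes and describe the ranking only.

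Among proteins that cut or position lysyl oxidases and collagen, 8 of 9 listed genes were tested, and all 8 rose in heart failure against sham, 6 rose against no heart failure and 5 rose in banded mice without heart failure against sham. The median log2 change was 1.48, 0.794 and 0.851, beside 0.006, -0.015 and 0.021 over all genes. Of all tested genes, 20.4%, 3.83% and 10.8% were called higher in these comparisons. The same shares stand beside the counts of the lists below. Periostin (Postn), which binds BMP1 and collagen, had 14.02 ± 0.232 and 12.95 ± 0.595 in mice with and without heart failure and 11.03 ± 0.329 in sham. Fmod, the collagen-binding proteoglycan fibromodulin that in mice directs lysyl oxidase to collagen, rose by 2.97 ± 0.494 in heart failure against sham (limma, adjusted p = 0.000133). Its rise without heart failure, 1.16 (0.112), was not called. Fn1, the fibronectin that helps processing of the LOX precursor, rose by 1.89 ± 0.275 and 0.91 ± 0.251 in heart failure against sham and against no heart failure (limma, adjusted p = 3.26e-05 and 0.0295). Bmp1, the proteinase of the precursors, was called against sham (0.79 ± 0.216, adjusted p = 0.00702) but not against no heart failure (0.61 ± 0.197, 0.0577) nor for no heart failure against sham (0.18 ± 0.216, 0.593). With the 18S set as a block, Bmp1 was not called in heart failure against sham (0.46, limma, adjusted p = 0.0951). The count in that comparison was then 7 of 8, and it was 8 of 8 in the low 18S arrays alone. Between the banded groups the count was 3 instead of 6 without mouse 2, 5 or 6 of the group without heart failure or mouse 1, 2 or 4 of the group with it, and against sham without heart failure it was 3 instead of 5 without sham mouse 1 or 2.

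Of the 4 genes listed for copper delivery, Sod3, an extracellular copper enzyme and not a copper carrier, rose in heart failure against sham (0.75 ± 0.179, limma adjusted p = 0.00264) and without heart failure (0.70 ± 0.179, 0.0113). It was the 1 gene of 4 called in each of these comparisons, beside 20.4% and 10.8% of all tested genes called higher. Atp7a, the pump that loads copper onto secreted enzymes, differed by 0.29 ± 0.143 in heart failure against sham (adjusted p = 0.113), the importer gene Slc31a1 by -0.18 ± 0.0956 (0.147) and the chaperone gene Atox1 by -0.06 ± 0.0735 (0.517). Between banded groups 0 of the 4 genes were called by limma, and 0 had an unadjusted p under 0.05. With heart failure mouse 7 left out, 3 genes were called in heart failure against sham, 2 higher and 1 lower. For no heart failure against sham, 1 gene was higher and 1 lower with heart failure mouse 5 or 7 left out.

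Collagen is the main substrate of the family. Of 8 fibrillar collagen genes 6 were tested, and 5, 4 and 5 of them rose in heart failure against sham, heart failure against no heart failure, and no heart failure against sham. The shares of all tested genes called higher were 20.4%, 3.83% and 10.8% in that order. Col1a1 was 12.53 ± 0.376 with heart failure, 11.66 ± 0.558 without it and 9.99 ± 0.603 in sham mice, a rise of 2.54 ± 0.279 in heart failure against sham (adjusted p = 1.65e-06). Col1a2 rose by 1.93 ± 0.231 and Col3a1 by 1.33 ± 0.214 in that comparison (limma, adjusted p = 3.82e-06 and 9.87e-05), and Col3a1 differed by 0.60 between the banded groups (0.0586, not called). Of 6 collagen IV genes 5 were tested, and 5, 2 and 4 rose; Col4a3 rose by 1.60 ± 0.182 and Col4a4 by 1.19 ± 0.109 in heart failure against sham (limma, adjusted p = 2.4e-06 and 2.22e-07). In heart failure mouse 5, 5 of the 6 tested fibrillar collagens lay below every other mouse of the group, while Lox lay above, and the collagen IV genes did neither. Of all 10733 tested genes, 3010 lay below and 2439 above in that mouse, so either end was common there. Without sham mouse 2, 3 fibrillar collagens were called for no heart failure against sham. The collagen IV count between the banded groups was 1 without any 1 of mice 2 to 7 of the group without heart failure or of mice 1, 2 and 6 of the group with it.

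The elastic fibre list had 9 of 11 genes tested, and 8, 6 and 7 rose in heart failure against sham, against no heart failure, and in no heart failure against sham, with medians of 1.37, 0.66 and 0.88. Ltbp2, which binds fibrillin, rose by 4.30 ± 0.386 in heart failure against sham (limma, adjusted p = 1.83e-07), the largest change in the pathway lists, and by 1.73 ± 0.353 against no heart failure (0.00629). Mfap4, a microfibril-associated protein, rose by 2.91 ± 0.303 and 1.35 ± 0.276 (adjusted p = 8.87e-07 and 0.00637). Eln, the elastin gene, was 9.79 ± 0.624 and 9.08 ± 0.495 with and without heart failure and 7.90 ± 0.418 in sham, and its difference between the banded groups, 0.71 ± 0.264, was not called (limma, adjusted p = 0.0962).

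The enzymes and chaperones that prepare collagen for crosslinking had 9 of 10 genes tested. All 9 rose in heart failure against sham, 2 against no heart failure and 4 in no heart failure against sham, with medians of 0.488, 0.242 and 0.251 that were smaller than those of the substrate lists. P4ha1, a prolyl hydroxylase, rose by 1.04 ± 0.113 (adjusted p = 1.48e-06) and Plod2, a lysyl hydroxylase of collagen telopeptides, by 0.72 ± 0.156 in heart failure against sham (limma, adjusted p = 0.00132). Blocking on the 18S set gave 5 of 9 in heart failure against sham and the low 18S arrays alone gave 4 of 9. Between the banded groups it was 0 with the 18S set as a block and in the low 18S arrays alone (limma; 3 and 2 had an unadjusted p under 0.05). It was also 0 without mouse 2 or 5 of the group without heart failure or mouse 1 with it, and 1 without mouse 6 of the group without heart failure or mouse 2 or 7 with it. For no heart failure against sham it was 2 without sham mouse 2.

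The list of other crosslinking or amine oxidase enzymes was called in both directions. Of 7 genes 3 were tested, and Tgm2, the tissue transglutaminase, rose by 0.56 ± 0.116 in heart failure against sham (limma, adjusted p = 0.000914), while F13a1, a factor XIII subunit made by macrophages, fell by 0.63 ± 0.223 (0.0317). Aoc3, a vascular amine oxidase, differed by 0.19 ± 0.156 (0.34). Called genes in heart failure against sham numbered 1 higher and 1 lower, and for no heart failure against sham 0 were called by limma and 0 had an unadjusted p under 0.05. Tgm2 was the 1 gene called between the banded groups (0.40 ± 0.105, adjusted p = 0.0225), and it was not called without mouse 5 of the group without heart failure, with the 18S set as a block (0.38, adjusted p = 0.05) or in the low 18S arrays (0.37, 0.193). The fall of F13a1 against sham was not called with that block (-0.55, limma, adjusted p = 0.12) or in the low 18S arrays (-0.43, 0.351), and with the actin covariate neither Tgm2 nor F13a1 was called against sham. With heart failure mouse 2, 4 or 6 or sham mouse 1 or 3 left out, the number called in heart failure against sham was 1 instead of 2.

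TGF-beta, which raises lysyl oxidase expression in fibroblasts, and hypoxia regulators had 12 of 12 genes tested, with 8, 5 and 5 higher in heart failure against sham, against no heart failure, and in no heart failure against sham. Tgfb2 was 10.37 ± 0.31 with heart failure, 9.34 ± 0.428 without it and 7.50 ± 0.56 in sham, and rose by 2.87 ± 0.235 in heart failure against sham (adjusted p = 6.8e-08). Ccn2, a connective tissue growth factor induced by TGF-beta, rose by 2.74 ± 0.227 and Tgfb3 by 1.80 ± 0.207 (limma, adjusted p = 7.35e-08 and 2.66e-06). Tgfb1 rose by 0.59 ± 0.14 against sham in heart failure (0.0026) and was not called between the banded groups (-0.13 ± 0.128, 0.558). Of the hypoxia factor genes, Hif1a rose against sham in heart failure (0.41 ± 0.142, adjusted p = 0.0276) and Epas1 was called in no comparison (0.06 ± 0.0691 in heart failure against sham, 0.525). Between the banded groups the count was 2 instead of 5 without mouse 2 or 5 of the group without heart failure or mouse 2 with it, and 3 without mouse 6 of the group without heart failure or mouse 1 or 4 with it.

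In the low 18S arrays alone, the number of genes called in heart failure against no heart failure fell to 1 of 8 for processing and scaffolds, 0 of 6 for fibrillar collagens, 2 of 9 for elastic fibre and 0 of 12 for TGF-beta and hypoxia genes, with 4 mice without heart failure instead of 7 (limma; 8, 5, 6 and 5 had an unadjusted p under 0.05). In heart failure against sham the counts there were 8, 5, 8 and 6. For no heart failure against sham they were 2, 2, 3 and 2, where all arrays gave 5, 5, 7 and 5, and collagen IV genes fell to 2 of 5 and hydroxylases and chaperones to 0 of 9 (limma; 7, 5, 7, 4, 3 and 2 had an unadjusted p under 0.05). Over all tested genes, calls in the low 18S arrays numbered 149, 2670 and 343 in these 3 comparisons, where all arrays gave 1017, 4220 and 1865. The high 18S arrays alone, with 3 mice in each group, gave 1818 calls over all tested genes for no heart failure against sham. In that comparison 3 of 8 processing and scaffold genes, 1 of 6 fibrillar collagens and 3 of 9 elastic fibre genes were called there. Collagen IV genes numbered 4 of 5, hydroxylases and chaperones 3 of 9, and TGF-beta and hypoxia genes 4 of 12, where all arrays gave 4, 4 and 5. The 1 copper gene called in this comparison, Sod3, was called in neither 18S set alone. Between the banded groups, collagen IV genes numbered 1 with the 18S set as a block and 0 in the low 18S arrays (limma; 5 and 4 had an unadjusted p under 0.05). With heart failure mouse 5 left out, the counts against no heart failure were 6 of 8, 5 of 6, 7 of 9 and 5 of 12.

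**Figure D5:**
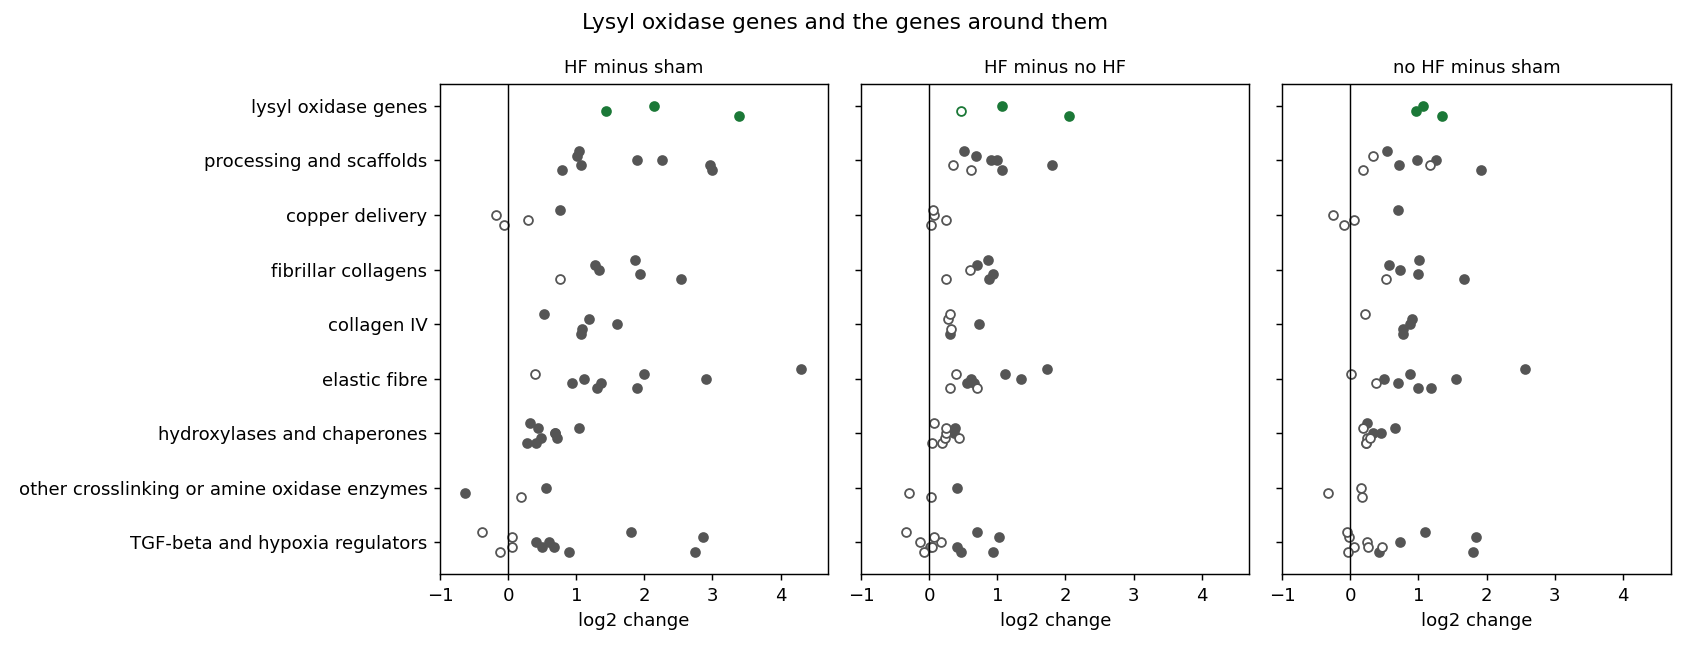
Log2 change (horizontal axis) of each tested gene by list (rows) in 3 comparisons (panels), with lysyl oxidase genes in green; filled points have an adjusted p under 0.05. The substrate, elastic fibre and processing lists lie mostly to the right of 0 in heart failure against sham, with Ltbp2 at 4.30, while the copper genes and the other crosslinking enzymes lie between -0.63 (F13a1, called) and 0.75 (Sod3, called) in that panel.

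Markers of several cell types also moved with the groups, and which cells expressed the lysyl oxidase genes was not measured. The mean of 7 fibroblast markers was 11.98 to 12.41 in mice with heart failure and 11.56 to 12.07 without it, against 11.10 to 11.79 in sham mice, and 6, 3 and 4 of the 7 rose in heart failure against sham, against no heart failure, and in no heart failure against sham. Of 5 activated fibroblast markers 4, 2 and 3 rose, with means of 9.51 to 10.60, 8.66 to 9.87 and 7.88 to 8.45 in heart failure, no heart failure and sham. Between the banded groups, 0 of the 7 fibroblast markers and 2 of the 5 activated fibroblast markers were called with the 18S set as a block (limma, 5 and 2 with an unadjusted p under 0.05). In the low 18S arrays alone, 0 of 7 and 0 of 5 were called there (limma, 2 and 2 with an unadjusted p under 0.05). For no heart failure against sham, the low 18S arrays gave 0 of 7 and 1 of 5 (limma, 5 and 4 with an unadjusted p under 0.05). Col1a1 and Postn are counted in both a marker list and a list above. Of 7 smooth muscle and pericyte markers, 3 were higher and 1 lower in heart failure against sham, 0 and 1 against no heart failure, and 2 and 1 in no heart failure against sham. In the low 18S arrays alone, 0 of these 7 were called in the last comparison (limma, 3 with an unadjusted p under 0.05). Of 6 endothelial markers, 2 were higher in heart failure against sham, 1 was lower against no heart failure and 1 was higher in no heart failure against sham. Of all tested genes, 20.4%, 3.83% and 10.8% were called higher in these 3 comparisons, and 18.9%, 5.65% and 6.53% lower. In heart failure against sham, 0 endothelial markers were called with the 18S set as a block or in the low 18S arrays alone (limma, 0 with an unadjusted p under 0.05). Of 6 cardiomyocyte markers 4 were lower in heart failure against sham and 1 against no heart failure. Of 4 atrial markers, Nppa, a natriuretic peptide gene, rose against sham in heart failure (2.18) and without it (1.92). Myl7, the atrial myosin light chain, fell by 4.93 ± 1.501 between the banded groups (limma, adjusted p = 0.0457). Macrophage and leukocyte markers were not called (0 of 6 in each comparison by limma; 1, 0 and 0 with an unadjusted p under 0.05 in the same order), and the lymphocyte markers with a probe set reached at most 4.28. The actin difference and the 18S set entered only as alternative settings of the fit. How much of the changes of the lysyl oxidase genes goes with fibroblast markers, RNA quality or atrial tissue was not tested.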

How the data were processed

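The authors deposited log2 expression values of 45101 Affymetrix probe sets on 19 arrays, made with GCRMA (per the submitters' processing notes, which name no version). GCRMA draws dim probe sets to a common floor and compresses their changes. Values ran from 2.19 to 16.77, and 50.5% were under 3. Arrays have no depth; their number limits the precision. The labels give each mouse its own sample, and 0 array pairs were identical.

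Gene names came from the platform annotation of GEO: 34958 had 1 symbol, 932 several and 9211 were not listed; the gene IDs of 34754 matched the reference gene table. Probe sets above 4 in at least 5 arrays with 1 symbol were kept, and the brightest stood for each of 10733 genes. Groups were compared in 1 limma fit over the 3 groups (limma 3.58.1, R 4.3.3), with Benjamini-Hochberg adjustment and a threshold of 0.05; the fit was tested on simulated data. Pairs of members and relations were tested by exact two-sided permutation (Python 3.11.15, scipy 1.17.1). Gene lists are described by counts and medians. Named were all members, the 2 largest called changes of each list in heart failure against sham, the 3 genes most like each member, and Col1a1, Col3a1, Eln, Bmp1, Tgfb1, Tgfb2, Tgfb3, Postn and Fn1; other genes of the lists were named to complete a role. The members and lists were chosen with earlier results of these data known. Alternatives covered the filter, probe set choice, scaling, 18S set, series of animal numbers, actin control, groups in the fit, variance model, array weights and each mouse left out. Figures were drawn with matplotlib 3.10.9.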

Additional observations from a re-analysis of the deposited data

Results flagged for a closer look

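Of 15 sets of values tested (5 detected probe sets in 3 groups), 3 held a mouse far from the rest of its group; chance alone marks about 1 in 20. Loxl1 in heart failure mouse 5 was 10.979 on its main probe set, and its gap to the next mouse was 0.62 of the range of the group (critical value 0.568). On the other Loxl1 probe set the same mouse had 6.227 (0.606 of the range). Sham mouse 3 had 6.343 on the second Lox probe set, with a gap of 0.747 of the range (critical value 0.71).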

How the results depend on the processing

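No paired analysis was possible because the replicate numbers were given in accession order and pair no mice. Lox and Loxl3 kept direction and call in heart failure against sham and against no heart failure under all 33 and 32 alternatives run, as did Loxl1 in heart failure against sham (33). Changes of Lox spanned 2.99 to 3.93 and 1.87 to 2.63 in these comparisons.

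For no heart failure against sham, Lox was not called in the low 18S set (1.99), the high 18S set (0.85), with the actin covariate (0.94) or on its second probe set (1.26), and ranged from 1.18 to 1.71 with 1 mouse left out. Loxl1 was 0.92 in the low 18S set, where 1 member was called, and it became called between the banded groups with array weights (0.62, adjusted p = 0.0137); with 1 mouse left out it ranged from 0.36 to 0.64. Leaving out 1 mouse gave 2 to 3 called members both for no heart failure against sham and between the banded groups. Over all genes, the low 18S set, which has fewer arrays, gave 343 calls for no heart failure against sham, 2670 for heart failure against sham and 149 between the banded groups, against 1865, 4220 and 1017. The actin covariate gave 1199 for no heart failure and 2705 for heart failure against sham, and array weights 1914 between the banded groups. With 1 mouse left out the counts were 1185 to 2200, 3538 to 4388 and 508 to 1146 (508 without mouse 5 and 672 without mouse 6 of the group without heart failure, 599 with heart failure mouse 2 left out, and 1185 without sham mouse 2).

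For the pairs, leaving out 1 mouse gave 0.23 to 0.65 for Lox minus Loxl1 and 0.12 to 0.61 for Lox minus Loxl3 in no heart failure against sham. In heart failure against sham it gave 1.11 to 1.59 for Lox minus Loxl3 and -0.88 to -0.53 for Loxl1 minus Loxl3. Calls that were higher made up 62.4%, 52% and 40.4% in no heart failure against sham, heart failure against sham and heart failure against no heart failure; after quantile normalisation 49.3%, 40.9% and 35.4%, and with equal medians 45.1%, 37.9% and 32.2%. The cause of these shifts was not tested. With the actin covariate, for no heart failure against sham, 3 of 8 processing genes, 2 of 6 fibrillar collagens and 3 of 9 elastic fibre genes rose. The limits are 5 sham mice, signal near the floor for Loxl4, and no mouse with heart failure in the high 18S set.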
